A study of Homo sapiens with 10 samples.

Results

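The Nodal pathway was followed through 10 genes for its ligands, receptors and secreted antagonists while human embryonic stem cells (hESCs) were turned into hepatocyte-like cells. The genes were taken by name from the deposited expression table, and all 10 were among its 12125 genes. The ligands were NODAL, GDF3 and INHBA, the co-receptor was TDGF1 (Cripto), the receptors were ACVR1B and ACVR2B, and the antagonists were LEFTY1, LEFTY2, CER1 and FST. NODAL, LEFTY1, LEFTY2 and CER1 were highest in libraries of the Activin A step and were at 1.43% of their highest value or less on day 5. TDGF1 followed later, FST was highest on days 5 and 7, INHBA was listed above 0 only from day 5 on, and the receptors moved by less than 4-fold over the whole course.

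H1, an established hESC line kept in mTeSR1 medium on Matrigel, was differentiated without serum, and each of 10 days between day 0 and day 21 gave 1 library of bulk RNA. The day 0 cells, in mTeSR1, received none of the factors added in the later steps, and factors that mTeSR1 itself contains are not listed here. The step from day 0 to day 1 thus changed the medium as well as adding Activin A. The cells of days 1, 2 and 3 received Activin A at 100 ng per ml in RPMI/B27 without insulin. Those of days 5 and 7 received FGF4 at 30 and BMP2 at 20 ng per ml in RPMI/B27 with insulin. Those of days 9, 11 and 13 received HGF and KGF at 20 ng per ml each, and those of day 21 received Oncostatin M (OSM) at 20 ng per ml in hepatocyte culture medium. The label of the day 13 library names OSM, whereas the lengths of the steps in the protocol let the HGF and KGF step end on day 13, and the protocol was followed here. All libraries came from this 1 cell line and course, and cells grown in parallel without Activin A were not analysed here, so time in culture and medium cannot be told apart.

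Nodal and Activin are ligands of the TGFβ superfamily that bind a type II receptor such as ACVR2B and a type I receptor such as ACVR1B (ALK4), which then phosphorylate SMAD2 and SMAD3. Nodal and GDF3 also need the cell surface co-receptor TDGF1, whereas Activin does not, and LEFTY1, LEFTY2, CER1 and FST are secreted proteins that block ligands of the pathway. The pathway maintains hESCs at low activity and directs them to definitive endoderm (DE), the precursor of the liver, at high activity, and Activin A protein is given to cells in culture in the place of Nodal.

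The values were normalized for GC content by the authors and rounded to whole numbers. They are scores and not read counts. The paper gives an average depth over its samples, but not the depth of each library. The totals of the libraries were within 1.36% of each other, and the highest value, 18734, was shared by 10 genes in every library. The highest values lay in 10 levels common to all libraries, and 7 of the 100 values of these genes were in those levels. These 7 were CER1 on days 2 and 3, LEFTY1 on day 3, LEFTY2 on days 1 and 3, and TDGF1 on days 1 and 3. Ratios that use these values are limited by the spacing of the levels. The values are not stated to be divided by gene length, so no order of levels between genes is read from them. In these bulk libraries, fewer cells of a type and less RNA per cell cannot be told apart. With 1 library per day, no test was made, and all differences are descriptions. A gene was counted as higher or lower when log2(value + 1) differed by at least 2 (4-fold) and its larger value was at least 50. Days 9 and 11, which share a medium, gave a measure of how far libraries differ: 0.213% of 8444 genes met the 4-fold rule between them. The SD of their log2 differences was 1.08 for genes with a mean value of 5 to 20, 0.49 for 20 to 50, 0.40 for 50 to 100, 0.32 for 100 to 200, 0.28 for 200 to 500 and 0.29 for 500 to 2000, which includes any change between those days.

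**Figure D1:**
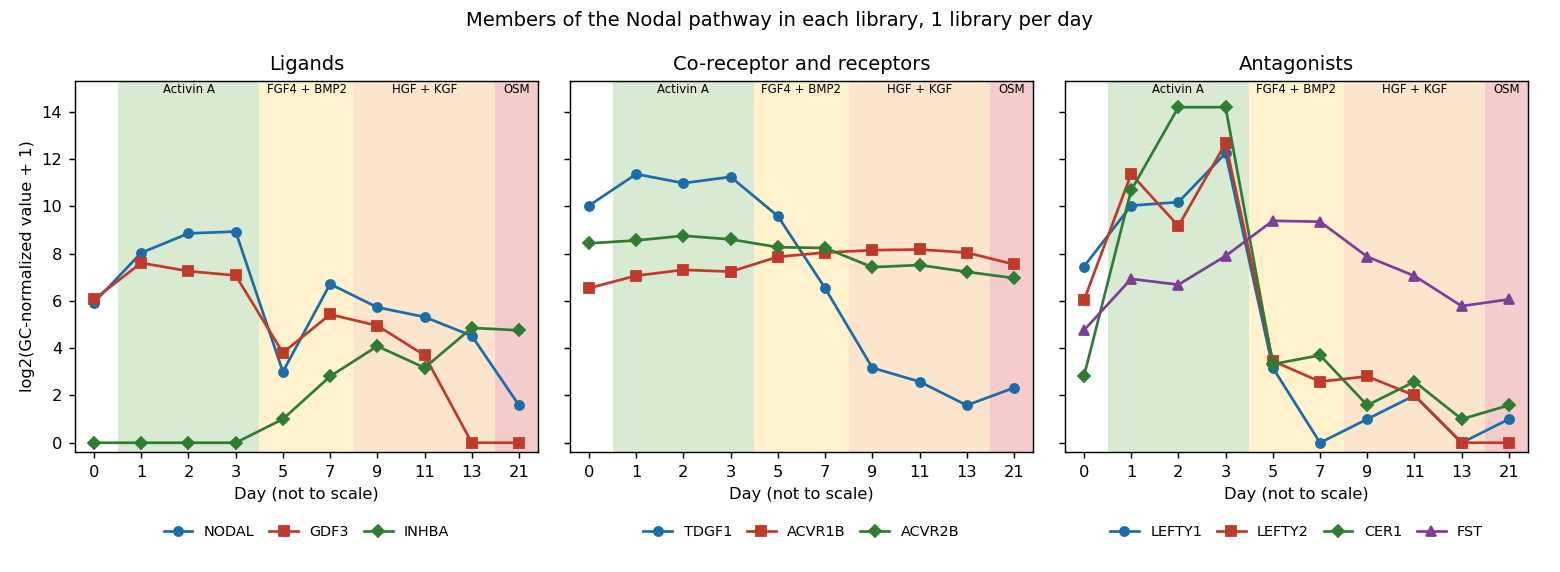
Level of each of the 10 genes as log2(GC-normalized value + 1) (vertical axis) on each day of differentiation (horizontal axis, not to scale), with ligands, receptors and antagonists in separate panels, 1 point per library and the medium as background colour. NODAL, LEFTY1, LEFTY2 and CER1 drop between days 3 and 5, TDGF1 drops between days 5 and 9, and the lines of ACVR1B and ACVR2B stay nearly flat.

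Of the ligands, NODAL (ENSG00000156574, chr10:72192071-72201423 in the table, whose build is not named) was 60 on day 0, 261, 462 and 488 on days 1, 2 and 3, 7 on day 5, 104 on day 7, 52, 39 and 22 on days 9, 11 and 13, and 2 on day 21. It was highest on days 2 and 3, which differed by 0.08 on the log2 scale, less than the SD between days 9 and 11 at this level, and the day 3 value was 8.13 times that of day 0. The gene encodes the ligand that gives the pathway its name. The day 5 value was 1.43% of the highest, and NODAL then rose again, by 3.71 on the log2 scale from day 5 to day 7, within 1 medium.

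GDF3 (ENSG00000184344, chr12:7842378-7848372), a Nodal-related ligand expressed in pluripotent cells, was 66 on day 0, 194, 152 and 134 on days 1, 2 and 3, 13 and 42 on days 5 and 7, 30 and 12 on days 9 and 11, and was listed at 0 on days 13 and 21. Its highest value was on day 1, at 2.94 times day 0, and each of the 3 Activin A libraries was above day 0. It had the same low point at day 5 as NODAL, at 6.70% of its highest value, and the log2 difference from day 5 to day 7 was 1.62.

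INHBA (ENSG00000122641, chr7:41724712-41742706) encodes the βA subunit, of which Activin A is a dimer. It was listed at 0 on days 0, 1, 2 and 3, and was 1, 6, 16, 8, 28 and 26 on days 5, 7, 9, 11, 13 and 21. None of its values reached 50, so it entered no count, and between days 9 and 11 the SD of log2 differences was 1.08 for genes with a mean value of 5 to 20 and 0.49 for 20 to 50. INHBA was thus listed at 0 in each library of cells given Activin A protein. Markers of other cell types were read over the same days. The summed level of the 8 stromal markers (8 of 8 found, among them COL1A1, LUM and POSTN) was 699 to 1035 on days 0 to 3, 971 on day 5, 5039 on day 7, 18651 to 38640 on days 9 to 13 and 41783 on day 21, with LUM and DCN both at 0 on days 2 and 3. The 6 hepatic markers (6 of 6 found) summed to 34 to 127 on days 0 to 3 and to 63702 on day 21. On day 21 AFP, TTR and SERPINA1 were each at 18734, the highest value of the table, and made up most of that sum. Of 5 mesoderm markers 2 were found (HAND1 and FOXF1), with a sum of 0 to 2 on days 0 to 3, 238 on day 7 and 1134 on day 13, of 4 endothelial markers 3 were found, with 572 on day 0, 253 on day 5 and 1864 on day 13, of 6 macrophage markers 2 were found, with 39 on day 0, 1 on day 5, 50 on day 13 and 324 on day 21, and of 4 trophoblast markers 2 were found, with 389 at most on day 5. The part of these cell types in the values of INHBA was not tested.

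TDGF1 (ENSG00000241186, chr3:46618727-46623953), the co-receptor, was 1044 on day 0, 2638, 2021 and 2428 on days 1, 2 and 3, 768 and 92 on days 5 and 7, 8, 5 and 2 on days 9, 11 and 13, and 4 on day 21. It was high from the start, reached 2.53 times day 0 on day 1, and was at 29.1% of its highest value on day 5, when NODAL, LEFTY1, LEFTY2 and CER1 were all at 1.43% or less. The decrease went on over the next libraries, with log2 differences of -1.66 from day 3 to day 5, -3.05 from day 5 to day 7 and -3.37 from day 7 to day 9. The summed level of 6 pluripotency markers (POU5F1, SOX2, NANOG, DPPA4, PRDM14 and ZFP42, all found) was 8644 on day 0, 8885 on day 1, 2459 on day 3, 957 on day 5, 475 on day 7, 231 on day 9 and 76 on day 21, with SOX2 at 0 on day 7 and PRDM14 at 0 from day 7 on. Most of the sum on days 0 and 1 was POU5F1 (4861 and 6498, both in the shared top levels). The markers had unlike courses: from day 0 to day 1 SOX2 went from 371 to 132 and DPPA4 from 2426 to 1214. ZFP42 was 225, 242 and 227 on days 3, 5 and 7. The part of these 6 markers in the values of TDGF1 was not tested.

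The receptors changed least. ACVR1B (ENSG00000135503, chr12:52345451-52390862), the type I receptor, was 92 on day 0, 133, 158 and 150 on days 1, 2 and 3, 232 and 263 on days 5 and 7, 282, 288 and 263 on days 9, 11 and 13, and 186 on day 21. Its lowest value was on day 0 and its highest on day 11, a ratio of 3.13, and from day 7 to day 13 neighbouring libraries differed by 0.13 or less on the log2 scale, below the SD of 0.28 at this level. ACVR2B (ENSG00000114739, chr3:38495342-38524948), the type II receptor, was 345 on day 0, 376, 431 and 388 on days 1, 2 and 3, 308 and 301 on days 5 and 7, 171, 182 and 149 on days 9, 11 and 13, and 124 on day 21. Its highest value was on day 2 and its lowest on day 21, a ratio of 3.48. The largest step was between days 7 and 9, where it decreased by 0.81 on the log2 scale, while successive days from day 0 to day 3 and the pair of days 5 and 7 differed by at most 0.20.

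**Figure D2:**
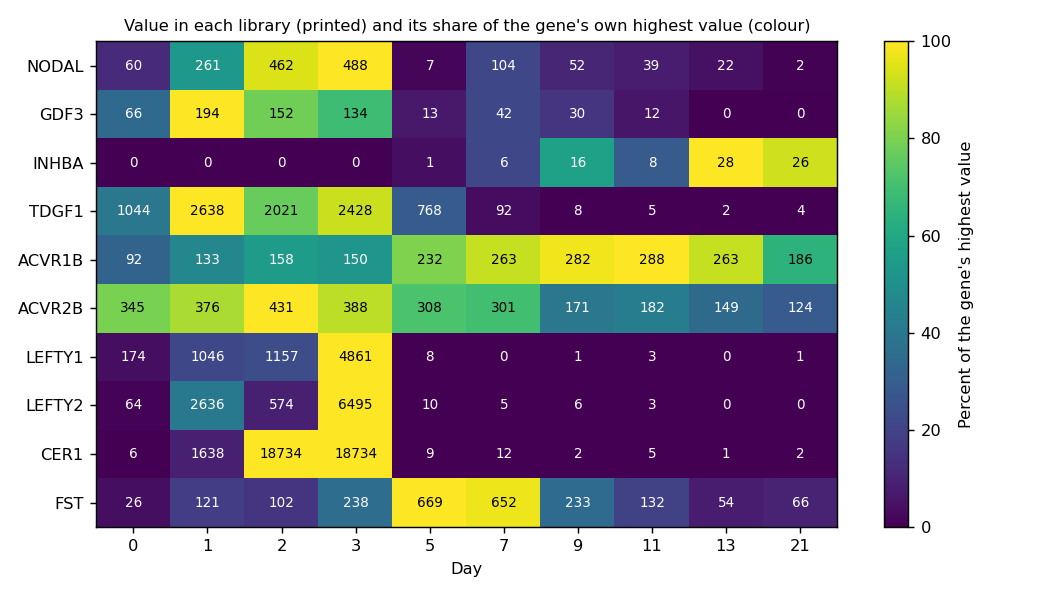
Value of each gene in each library (printed in the cell), with days on the horizontal axis and genes on the vertical axis, and the colour giving the percent of the highest value of that gene. LEFTY1 and LEFTY2 reach their highest value on day 3 alone, CER1 is at the top of the scale on days 2 and 3, FST peaks on days 5 and 7, and the last column of NODAL is at 0.410%.

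Of the antagonists, CER1 (ENSG00000147869, chr9:14719722-14722715), which encodes Cerberus, a secreted inhibitor of Nodal and BMP ligands, was 6 on day 0, 1638 on day 1, 18734 on days 2 and 3, 9 and 12 on days 5 and 7, 2, 5 and 1 on days 9, 11 and 13, and 2 on day 21. Days 2 and 3 held the highest value that the table allows, so any difference between them cannot be seen. The ratio of 3120 to day 0 rests on a low value of 6 and on that upper limit. LEFTY1 (ENSG00000243709, chr1:226073982-226076846) was 174 on day 0, 1046, 1157 and 4861 on days 1, 2 and 3, 8 on day 5, 0 on day 7, 1 and 3 on days 9 and 11, 0 on day 13 and 1 on day 21. Day 3 was 27.9 times day 0, and days 1 and 2 differed by 0.15 on the log2 scale. LEFTY2 (ENSG00000143768, chr1:226124304-226129189) was 64 on day 0, 2636, 574 and 6495 on days 1, 2 and 3, 10 and 5 on days 5 and 7, 6 and 3 on days 9 and 11, and 0 on days 13 and 21. Day 3 was 101 times day 0. The day 3 values of LEFTY1 and LEFTY2 lay in the shared top levels, so the ratios of 27.9 and 101 depend on where those levels lie. The LEFTY proteins are themselves targets of Nodal signalling and close a feedback loop on it.

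FST (ENSG00000134363, chr5:52776239-52782964) encodes follistatin, which binds Activin and blocks it, and its course differed from those of the other antagonists. It was 26 on day 0, 121, 102 and 238 on days 1, 2 and 3, 669 and 652 on days 5 and 7, 233, 132 and 54 on days 9, 11 and 13, and 66 on day 21. The highest values were thus those of the FGF4 and BMP2 step, at 25.7 times day 0, and days 5 and 7 differed by 0.04 on the log2 scale. FST was at 35.6% of its highest value on day 3 and came down to 8.07% of it on day 13. The summed level of 5 DE markers (SOX17, FOXA2, GATA6, CXCR4 and HHEX, all found) was highest on day 3, at 2329, and was 1398 and 1026 on days 5 and 7, and that of 6 hepatic markers was 969 on day 5 and 25215 on day 7, of which AFP held 342 and 18734, the highest value of the table. Their part in the values of FST was not tested.

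Because LEFTY1 and LEFTY2 lie in tandem on chromosome 1 and are near copies, their sequences were compared. The coding sequences in GENCODE release 29, for the GRCh38 build, were both 1101 bases long and differed at 31 of them, an identity of 97.18%, and the longest identical run had 300 bases.

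Of all stretches of 50 bases in the longest coding transcript, 54.7% of those of LEFTY1 were also found in transcripts of another gene, and 52.9% of those of LEFTY1 were found in AL117348.2, a gene model that includes LEFTY1 exons. For LEFTY2 26.1% were shared, mainly with LEFTY1 (22.0%). For TDGF1 41.2% were shared, nearly all with the pseudogene TDGF1P3 (40.7%). For ACVR2B the share was 0.3%, and for the other 6 genes it was 0. The split of reads between LEFTY1 and LEFTY2, and between TDGF1 and its copy, is therefore uncertain. LEFTY2 on days 1 and 3 and LEFTY1 on day 3 lay in the shared top levels, so ratios on those days depend on the spacing of these levels. The ratio of LEFTY2 to LEFTY1 was 0.368 on day 0, 2.52 on day 1, 0.496 on day 2 and 1.34 on day 3, so it moved up and down from day to day. The sum of both was 238, 3682, 1731 and 11356 on days 0 to 3 and 18 on day 5, and was 7 or less from day 7 on, so the rise and the drop were found with the genes summed, and day 2 was still below day 1.

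The low value of LEFTY2 on day 2 was set against all genes. It was 4.59 times lower than day 1 and 11.3 times lower than day 3. Of 8205 genes, 3 (0.0366%) were at least 4-fold below both the library before and the library after on day 2, and the other 2 were EIF3CL (733, 180 and 788 on days 1, 2 and 3) and MSANTD3-TMEFF1 (197, 0 and 142). EIF3CL is a near copy of EIF3C and MSANTD3-TMEFF1 is a readthrough of the genes in its name. The same count for day 5 took in NODAL, with 6 of 8222 genes (0.0730%). The others were the Wnt receptor FZD5 (1108, 36 and 165 on days 3, 5 and 7), the transporter SLC1A1 (76, 9 and 130), the VEGF receptor KDR (240, 42 and 270), PIGY (59, 0 and 76) and PLCE1 (182, 16 and 134). These 2 counts were made after the values had been seen, and no library of another time course was analysed here to show whether the low values recur.

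To ask how the pathway changed at each step of the protocol, the last libraries of successive media were compared. From day 0 to day 3, 9 of the 10 genes had a larger value of at least 50, and 5 were higher (NODAL, LEFTY1, LEFTY2, CER1 and FST) and 0 lower, where 3.94% of 8934 genes were higher and 2.16% lower. The log2 differences were 11.39 for CER1, 6.64 for LEFTY2, 4.80 for LEFTY1, 3.15 for FST and 3.00 for NODAL, which put CER1 first of all 8934 genes, LEFTY2 at rank 19, LEFTY1 at 74, FST at 165 and NODAL at 173. TDGF1 (1.22), GDF3 (1.01), ACVR1B (0.70) and ACVR2B (0.17) did not meet the rule. The median log2 difference over the 10 genes was 2.11, against -0.04 over all genes.

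From day 3 to day 7, 0 of 9 genes were higher and 5 lower (NODAL, TDGF1, LEFTY1, LEFTY2 and CER1), where 5.63% of 9100 genes were higher and 4.41% lower. The log2 differences were -10.49 for CER1, -10.08 for LEFTY2, -4.71 for TDGF1 and -2.22 for NODAL, and LEFTY1 was listed at 0 on day 7. FST (1.45) and ACVR1B (0.81) were on the positive side without meeting the rule. The median over the 10 genes was -1.93, against -0.03 over all genes. The step was also split at day 5. From day 3 to day 5, 0 of 9 were higher and 5 lower, where 2.85% of 8767 genes were higher and 2.24% lower, and the 3 lowest differences of all 8767 genes were those of CER1 (-10.87), LEFTY2 (-9.21) and LEFTY1 (-9.08), with NODAL (-5.93) at rank 11 from the lowest and GDF3 (-3.27) at rank 61. From day 5 to day 7, of 5 genes with a large enough value, NODAL was higher and TDGF1 lower, where 2.25% of 8755 genes were higher and 1.34% lower. NODAL was at rank 59 from the highest and TDGF1 at rank 22 from the lowest.

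From day 7 to day 13, 5 genes had a large enough value, and 0 were higher and 3 lower, where 3.08% of 8892 genes were higher and 2.46% lower. The count of 3 was 1 with a minimum value of 200 and 6 with no minimum. The log2 differences were -4.95 for TDGF1, -3.57 for FST, -2.19 for NODAL and -1.01 for ACVR2B, and ACVR1B was 263 on both days. The median over the 10 genes was -2.39, against -0.04 over all genes. From day 13 to day 21, ACVR1B (-0.50), ACVR2B (-0.26) and FST (0.28) had a large enough value, and none of these 3 was higher or lower, where 2.28% of 8786 genes were higher and 1.62% lower. Over these later steps the counts rest on few genes, since most of the 10 had come close to 0.

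**Figure D3:**
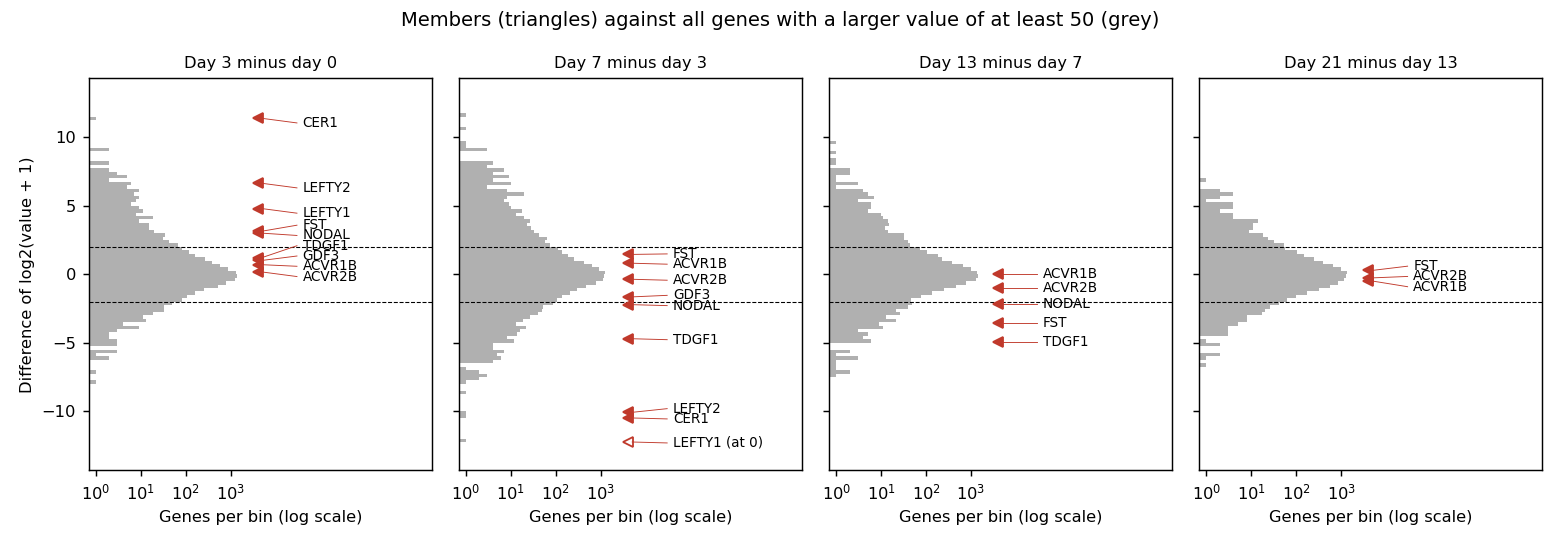
Difference of log2(value + 1) between the last libraries of successive media (vertical axis) for all genes with a larger value of at least 50, as a grey histogram with the number of genes per bin on a log scale (horizontal axis), and for the 10 genes where large enough, as red triangles, open where the later value is 0. The dashed lines mark the 4-fold rule, and CER1 is the highest of all 8934 genes from day 0 to day 3.

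To see which of the 10 genes shared a course, Pearson r of log2(value + 1) was taken over the 10 libraries for all 45 pairs. The points are successive days of 1 time course and share each library, so r is a description only. The median was 0.53, with 13 pairs at 0.8 or more and 16 below 0. LEFTY1 and LEFTY2 had r = 0.96, LEFTY2 and CER1 0.91, LEFTY1 and CER1 0.89, and NODAL had 0.86 with GDF3, 0.82 with LEFTY2 and 0.81 with CER1. TDGF1 had its highest r, 0.96, with the receptor ACVR2B, and the receptors ACVR1B and ACVR2B had r = -0.59 with each other. INHBA was opposite to TDGF1 (-0.97) and to ACVR2B (-0.95), but it was listed at 0 in 4 libraries and never above 28, so its r values rest on low values. FST was close to 0 with NODAL (0.07), LEFTY2 (0.04) and CER1 (0.10), and its highest r was with ACVR1B (0.53).

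**Figure D4:**
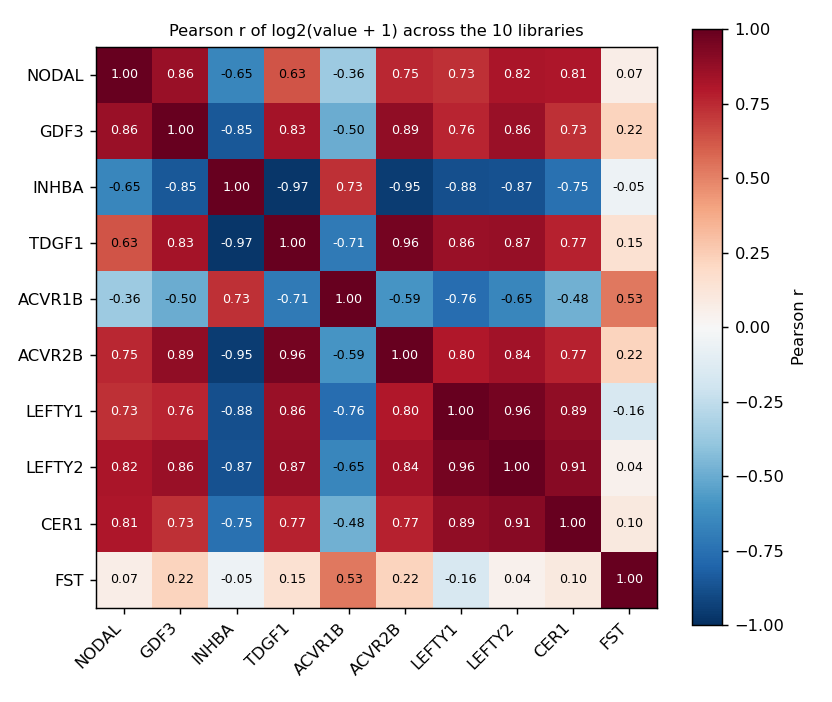
Pearson r of log2(value + 1) across the 10 libraries for each pair of the 10 genes, with genes on both axes and r as colour and number. LEFTY1, LEFTY2 and CER1 form a block of 0.89 to 0.96, the rows of INHBA and ACVR1B are mostly negative, and FST lies near 0 with most genes.

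The 3 genes most like each of the 10 were then taken by r among 10737 other genes with a highest value of at least 50. For CER1 they were GSC (r = 0.976), which encodes the organizer transcription factor Goosecoid and was 2 on day 0, 202, 342 and 315 on days 1, 2 and 3 and 0 on day 5, FGF8 (0.974), a growth factor with values of 0, 51, 46, 72 and 1 on the same days, and SREK1IP1 (0.962). For LEFTY1 they included RP11-149I23.3 (0.989) and the receptor tyrosine kinase RET (0.980), which was 17 on day 0, 182 on day 3 and 6 on day 5. For LEFTY2 they were LRRC2 (0.989), the histone demethylase KDM6A (0.974) and IL28RA (0.969). The value of r does not depend on the size of a change. On days 0 and 3 LRRC2 was 22 and 82, KDM6A 256 and 567 and IL28RA 41 and 65, where LEFTY2 was 64 and 6495.

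For NODAL they were FAM217B (0.959), MID1IP1 (0.943) and AGPS (0.942), which had a low point at day 5 as NODAL did but a smaller range. MID1IP1 for example was 589, 168 and 324 on days 3, 5 and 7. For GDF3 they were MSI1 (0.968), NAA10 (0.964) and SHPRH (0.963). For TDGF1 they were the FGF signalling inhibitor IL17RD (0.992), the kinase PRKCI (0.989) and the lipoprotein receptor LRP8 (0.988), and for ACVR2B they were the transcription factor ZIC2 (0.988), NSUN2 (0.987) and CRLF3 (0.987).

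For INHBA they were ASGR2 (0.987), a subunit of the asialoglycoprotein receptor of hepatocytes, ACAA1 (0.984), a peroxisomal thiolase, and SERPINC1 (0.982), which encodes antithrombin. INHBA had no value above 28, so this likeness rests on low values. For ACVR1B they were SEPT11 (0.978), TCF25 (0.976) and FOXP4 (0.971). For FST they were GLIPR2 (0.969), CNN3 (0.964) and CBFB, and GLIPR2 followed FST closely with 251, 599, 612 and 270 on days 3, 5, 7 and 9.

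The sequence upstream of the start sites was searched for motifs of factors that act in this pathway, in 250 bases before each start in the RefSeq table for GRCh38.p14. This table held 10 windows for 8 of the 10 genes, with TDGF1 under its newer name CRIPTO, and LEFTY1 and LEFTY2 had no entry. Windows of CER1, NODAL and GDF3 are given, as these genes were lowered together at day 5, each on the minus strand and read in the direction of the gene, with capitals at motif matches: CER1 at chr9:14722734-14722983, NODAL at chr10:70441682-70441931 and GDF3 at chr12:7695776-7696025.
CER1: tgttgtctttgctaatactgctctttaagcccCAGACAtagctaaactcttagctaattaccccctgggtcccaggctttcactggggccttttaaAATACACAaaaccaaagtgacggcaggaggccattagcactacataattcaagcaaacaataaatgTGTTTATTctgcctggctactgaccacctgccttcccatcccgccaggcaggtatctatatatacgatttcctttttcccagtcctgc
NODAL: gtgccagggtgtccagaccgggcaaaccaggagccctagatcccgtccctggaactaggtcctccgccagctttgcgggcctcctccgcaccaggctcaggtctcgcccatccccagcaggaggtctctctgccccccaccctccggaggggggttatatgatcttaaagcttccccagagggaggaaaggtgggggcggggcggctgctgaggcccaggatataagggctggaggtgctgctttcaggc
GDF3: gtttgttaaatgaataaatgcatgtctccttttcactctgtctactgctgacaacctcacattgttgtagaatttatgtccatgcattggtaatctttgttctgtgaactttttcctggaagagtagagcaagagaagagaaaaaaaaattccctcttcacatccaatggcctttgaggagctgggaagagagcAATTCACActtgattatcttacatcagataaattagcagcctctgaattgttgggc

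On both strands, the FOXH1 motif AATCCACA was in 0 of the 10 windows and in 0.71% of 35116 RefSeq windows, and its wider form AATNNACA, which contains the former, was in 2 of the 10 windows and in 9.88% of all. The SMAD motif CAGACA was in 2 of the 10 windows and in 13.61% of all, and the T-box motif AGGTGTGA was in 0 of the 10 windows and in 0.79% of all. The CER1 window held AATACACA at -154 and TGTTTATT, a match on the other strand, at -88 from the start site, and CAGACA at -218. The GDF3 window held AATTCACA at -56, and the window of the second ACVR1B start held CAGACA at -124. The NODAL window held none of these letters. A match of these letters is not shown to be a binding site, and windows of this length leave out introns and distant enhancers.

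The other genes of the pathway were taken from a list of 39, of which 30 were in the table. From day 0 to day 3, 9 of 24 with a large enough value were higher and 0 lower, against 3.94% and 2.16% of all genes. These were SMAD2 and all 8 textbook targets of the pathway that were found, among them EOMES, GSC, MIXL1, LHX1, FOXA2, SOX17 and FGF8. EOMES, a T-box factor of mesendoderm, was 7 on day 0, 1088, 1435 and 1279 on days 1, 2 and 3, 230 on day 5 and 35 on day 7. MIXL1, a homeobox factor of the primitive streak, was 6 on day 0, 874, 1022 and 696 on days 1, 2 and 3 and 24 on day 5. SOX17 was 2 on days 0 and 1 and 745, 790 and 530 on days 2, 3 and 5. FOXA2, a factor of endoderm, was 190 on day 3 and 343 on day 7, a log2 difference of 0.85 that did not meet the rule.

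From day 3 to day 7, 3 of 27 were higher and 7 lower, against 5.63% and 4.41% of all genes. The lower ones were EOMES, GSC, MIXL1, LHX1, SOX17 and FGF8 and the membrane protein PMEPA1, a feedback inhibitor induced by TGFβ signals, which was 104 on day 0, 299 on day 3 and 18 on day 5. The higher ones were TGFBR3, the co-receptor betaglycan, the convertase PCSK5, and BAMBI, a decoy receptor, which was 118 on day 3 and 714 on day 5. From day 7 to day 13, 1 of 22 was higher (TGFBR3, from 143 to 1250) and 2 lower (FOXH1, from 146 to listed at 0, and SOX17, from 72 to 4), against 3.08% and 2.46% of all genes. FOXH1, the DNA-binding partner of SMAD2 in Nodal signalling, was 226, 278 and 146 on days 3, 5 and 7, so its drop came after those of NODAL, LEFTY1, LEFTY2 and CER1. From day 13 to day 21, 1 of 20 was higher, the Nodal convertase PCSK6 (204 to 1088), and 0 lower, against 2.28% and 1.62% of all genes. The medians of all 30 genes over these 4 steps were 0.61, 0.23, -0.34 and 0.00, against -0.04, -0.03, -0.04 and -0.10 over all genes.

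Of the 11 transducers, SMAD2 and FOXH1 were the ones that met the rule over a step between media. SMAD2 was 214, 232, 354 and 938 on days 0 to 3 and 405 on day 5, a single high value on day 3. SMAD4, the common partner, lay between 164 and 288 in all libraries, and SMAD7, an inhibitory SMAD that the pathway induces, lay between 94 and 265. SMAD3 was 30 to 88 up to day 5 and between 188 and 382 from day 7 on. TGIF1 was 524 on day 5 and 101 on day 21, SKIL was 462 on day 0 and 106 on day 9, and SMURF2 was 44 on day 0 and 196 on day 13. The second type II receptor, ACVR2A, was 65 to 102 up to day 13 and 261 on day 21, when ACVR2B was at its lowest, 124. FSTL3, a relative of FST, was highest on day 21, at 232, when FST was 66.

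**Figure D5:**
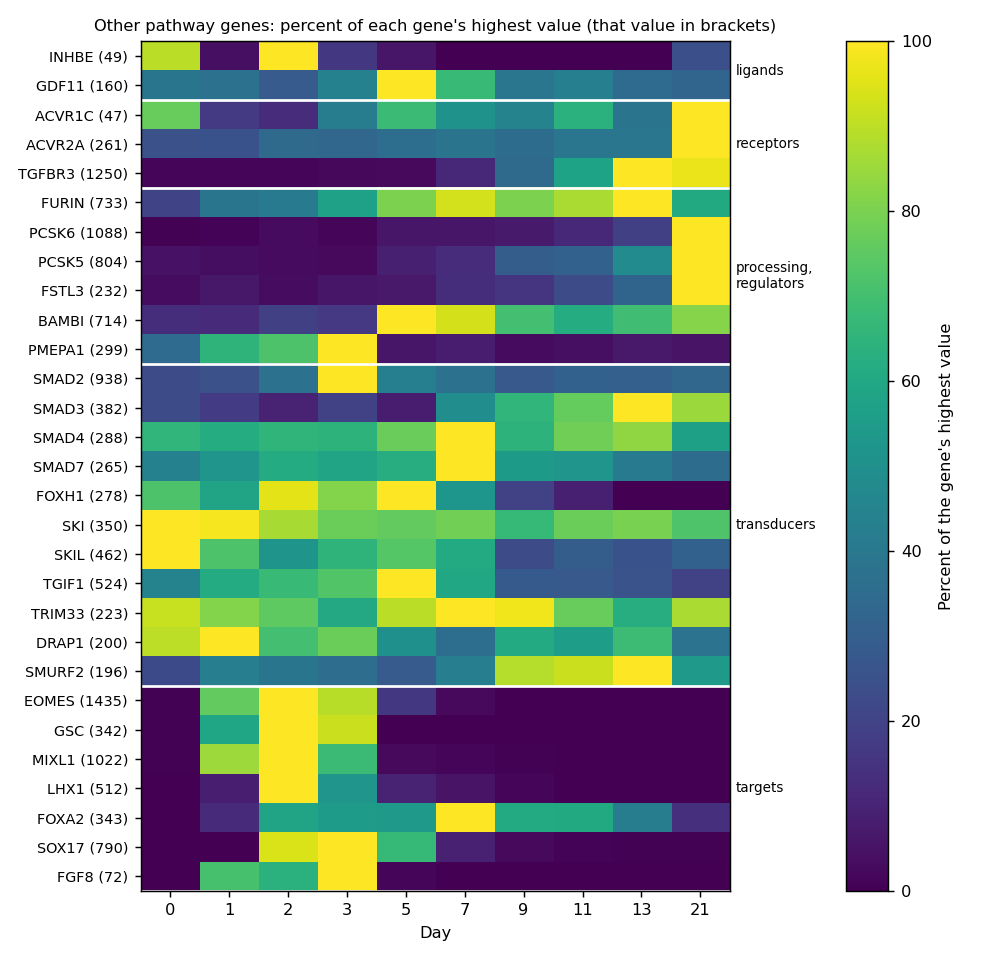
Percent of the highest value of each gene (colour) on each day (horizontal axis) for other pathway genes found in the table (vertical axis, highest value in brackets), grouped by role. Most targets are bright only on days 1 to 3, FOXA2 is brightest on day 7, and TGFBR3, PCSK6, PCSK5 and FSTL3 are brightest on days 13 and 21.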

How the data were processed

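RNA was sequenced from H1 cells on 10 days, with 1 library per day. The authors quantified the reads with RSEM v1.2.17 and Bowtie2 v2.2.0 on Ensembl release 76 (called mm10 in their methods, although the genes are human), corrected GC content with EDASeq and deposited rounded values, treated here as scores because sorted values and totals are nearly the same in all libraries. Such values hide differences in depth, and count tests were not used. The library kit is not stated to keep strand. The submitters' processing notes name mm10 and hg19 with no role, so intervals keep the coordinates of the table, and sequences come from RefSeq (GRCh38.p14) and GENCODE release 29.

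Differences of log2(value + 1), counts of genes at least 4-fold apart with a larger value of at least 50, and Pearson r were computed with Python 3.11.15, numpy 2.4.6 and pandas 2.3.3, and plots with matplotlib 3.10.9. The code was tested on simulated data: of 12125 genes with 200 changed 8-fold, 200 changed and 0 unchanged genes were called. These data were random Poisson counts around the mean of each gene, with changes planted only in well-expressed genes. The test checks the code and gives no error rate for the deposited scores. The genes and lists were chosen with earlier results of these data known. Named genes were the 10 genes, the 3 most like each by r, and pathway genes past the 4-fold rule, and others were named after their values were seen. Alternatives were other pseudocounts, scalings, minimum values, folds and correlations, leaving out libraries, and summing the LEFTY genes. A few genes and 1 stretch of sequence met by these rules are not reported here.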

Additional observations from a re-analysis of the deposited data

How the results depend on the processing

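The deposited values already had nearly the same sorted values and totals in all libraries. Scaling them again could thus change little, and it does not test the normalization. With libraries divided by median-of-ratios factors (0.915 to 1.057) or by their totals, 40 of 40 log2 differences of the 10 genes over the 4 steps moved by less than the SD between days 9 and 11. With a pseudocount of 0.1, 6 differences moved by more, and with 5, 9 did, all of genes with a value of 12 or less in 1 of the 2 libraries. The counts of these genes called by the 4-fold rule held with either scaling, either pseudocount, an 8-fold rule and the LEFTY genes summed, within 1.5 times. With no minimum on the larger value, 1 gene (INHBA) was higher from day 3 to day 7 and 1 (INHBA) from day 7 to day 13, 6 were lower from day 7 to day 13 and 1 (NODAL) from day 13 to day 21. With a 2-fold rule, 1 gene (FST) was higher from day 3 to day 7, and with a minimum of 200, 1 (FST) was lower from day 7 to day 13. Over all genes, the counts higher and lower were 352 and 193 from day 0 to day 3, 512 and 401 from day 3 to day 7, 274 and 219 from day 7 to day 13, and 200 and 142 from day 13 to day 21. In the same order they were 571 and 335, 801 and 629, 409 and 409, and 301 and 369 with no minimum, 156 and 81, 231 and 164, 102 and 87, and 105 and 44 with a minimum of 200, 991 and 810, 1201 and 1161, 858 and 730, and 753 and 798 with a 2-fold rule, and 173 and 58, 275 and 173, 126 and 85, and 73 and 37 with an 8-fold rule. The pairs with r of at least 0.8 numbered 11 to 18 over all alternatives, most without the day 5 library. Summing the LEFTY genes, and leaving out libraries other than those of days 0 and 21, were chosen after seeing the data. The depth of each library is not given, and values under 20 and at the shared top levels limit what can be seen. No paired analysis was possible because there is 1 library per day.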

Other observations

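Genes near the 10 on the chromosome were looked at after their values had been seen, within 100 kb by the intervals of the table. TMEM63A, 3.91 kb from LEFTY1, was 372 on day 3 and 80 on day 5, but returned to between 212 and 258 on days 7 to 21.

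LRRC2, 10.7 kb from TDGF1, was 22, 60, 51 and 82 on days 0 to 3 and 14 on day 5. It was the gene most like LEFTY2 in its course (r = 0.989), on another chromosome. With its neighbour TDGF1 it had r = 0.88, at rank 713 of 10737 genes. FREM1, a basement membrane gene 14.4 kb from CER1, was 5, 14, 527 and 456 on days 0 to 3 and 13 on day 5. Like CER1 it was high on days 2 and 3 and low on day 5, but on day 1 CER1 was already 1638. FREM1 then went from 51 on day 9 to 527 on day 21, when CER1 was 2. Its r with CER1 was 0.34, at rank 4195 of 10737 genes. NANOG, 92.0 kb from GDF3, had r = 0.91 with it, at rank 122 of 10737 genes.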
